A study of Mus musculus with 8 samples.

Results

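The genes described here are Myc and Mycn, which encode the transcription factors MYC and N-MYC, and 4 genes for proteins of the same dimerisation network: Max, Mxd4, Mnt and Mxi1. They were chosen by name and found by mouse Ensembl identifier in the count tables, where they make 6 of 27318 genes. All 6 had counts on all 8 plates.

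MYC and N-MYC are leucine zipper proteins that bind DNA only as a dimer with MAX, most often at the E-box motif, and raise the transcription of genes for ribosome production, nucleotide synthesis and cell growth. MXD4, MXI1 and MNT compete for MAX and, as dimers with it, recruit SIN3 corepressors to the same motif. In bone marrow, MYC is known for driving the exit of stem cells into cycling progenitors, N-MYC for acting beside it in stem cells, and the MXD proteins for accompanying cell cycle exit.

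Single cells of the LSK fraction, the Sca1- and cKit-positive marrow cells that include blood stem cells and early progenitors, were sorted from Dach1-GFP mice into 384-well plates and profiled by CEL-seq2, a method that counts the 3′ ends of polyadenylated RNA. Every plate held cells of the same group, mice in which a biotin tag and an IRES-GFP follow the coding sequence of Dach1, bred from a single targeted C57BL/6 embryonic stem cell clone after removal of the selection cassette. The labels give no agent, an age of 8 to 16 weeks for the mice of the study, and neither the zygosity nor the animals behind a plate. P-values can thus speak to the spread between plates, not between animals. The marrow was enriched for CD117 (cKit) before sorting. After filtering, 2712 cells remained, 1352 on the 4 plates named LCE and 1360 on the 4 plates named LC, and the sorter's fluorescence of each cell was deposited. Within each plate, cells were ranked by each intensity, and the highest of 3 equal parts (the high tercile) was set against the lowest (the low tercile) for Sca1, CD135, Dach1-GFP and CD150 on all plates and for forward scatter, a measure of cell size, on the LCE plates, where it was recorded.

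CD135 is the FLT3 receptor of multipotent and lymphoid-primed progenitors, CD150 marks long-term stem cells and some megakaryocyte and erythroid progenitors, Sca1 is the stem and progenitor antigen encoded by Ly6a, and GFP stands for transcription of Dach1, which encodes a transcriptional cofactor. Counts of kept cells came to 2091816 to 2742061 per LCE plate and 4382495 to 5192543 per LC plate, with medians of 5627 to 7525 and 11586 to 13398 counts per cell. The labelled cell type was checked against its markers: Kit lay at 198 to 274 CPM (counts scaled to 1000000 counts of the plate or arm) and Ly6a at 49.9 to 79.2 CPM, all 12 stem cell markers had counts, and 279 of the 2712 cells carried markers of other types, 218 of them of the B lineage and 64 of macrophages. The 383 well positions, each with its own barcode, were shared by all 8 plates by design. The 24 wells that received no cell held at most 42 counts each and 0 counts of the 6 genes.

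On mouse genome build GRCm38 (GENCODE M21 annotation), Myc lies on the plus strand of chromosome 15 from 61985391 to 61990374 and Mnt on the plus strand of chromosome 11 from 74830920 to 74845725. Mycn and Max lie on the minus strand of chromosome 12, from 12936093 to 12941914 and from 76937269 to 76962201, Mxd4 on the minus strand of chromosome 5 from 34173883 to 34187720, and Mxi1 on the plus strand of chromosome 19 from 53310518 to 53375810. An antisense gene, Gm42846, shares 1001 bases with the 3′ end of Mxd4, Gm47218 shares 1319 bases with Max on the same strand, and AC133451.2 and Gm10197 lie inside Mxi1 on the opposite strand. Whether the counting used strand is not given in the sources used here, so the values of Mxd4, Max and Mxi1 may hold reads of those genes.

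RefSeq promoters (build GRCm38.p6, 250 bases before to 50 bases after the start site) matched 5 of the 6 genes, all but Myc, and Mxi1 with several. Of the 3 genes called between arms below, Myc, Mycn and Mxd4, they are shown for Mycn and Mxd4, and beside these for Max and Mnt, since the factors of the network bind the E-box, searched for as CACGTG (a palindrome, so both strands were covered, and no other motif was searched). The promoters of Mxd4, Max and Mnt held 1 copy each, in capitals below, beginning 219, 3 and 123 bases before the start site, while those of Mycn and Mxi1 held none. Of all 32851 promoters of this length in the table, 7.15% held the motif. Each sequence is given 5′ to 3′ on the strand of its gene, at chr12:12941787-12942086 (minus) for Mycn, chr5:34187661-34187960 (minus) for Mxd4, chr12:76962199-76962498 (minus) for Max and chr11:74830674-74830973 (plus) for Mnt.
Mycn: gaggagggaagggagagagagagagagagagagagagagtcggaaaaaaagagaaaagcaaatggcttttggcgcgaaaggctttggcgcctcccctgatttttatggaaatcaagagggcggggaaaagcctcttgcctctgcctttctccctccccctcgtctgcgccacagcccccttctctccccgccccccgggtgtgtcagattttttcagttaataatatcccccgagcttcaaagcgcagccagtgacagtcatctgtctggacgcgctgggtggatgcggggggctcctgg
Mxd4: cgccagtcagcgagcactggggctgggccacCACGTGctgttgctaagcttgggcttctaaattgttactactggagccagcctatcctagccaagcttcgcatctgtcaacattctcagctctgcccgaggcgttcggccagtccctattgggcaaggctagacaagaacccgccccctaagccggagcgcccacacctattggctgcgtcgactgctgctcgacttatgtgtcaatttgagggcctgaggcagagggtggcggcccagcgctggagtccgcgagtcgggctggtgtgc
Max: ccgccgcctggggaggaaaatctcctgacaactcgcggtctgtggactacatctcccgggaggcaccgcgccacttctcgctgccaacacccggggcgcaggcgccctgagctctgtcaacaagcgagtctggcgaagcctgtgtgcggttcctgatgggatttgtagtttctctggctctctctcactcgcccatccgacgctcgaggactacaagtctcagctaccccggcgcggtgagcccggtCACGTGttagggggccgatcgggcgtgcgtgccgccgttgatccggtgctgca
Mnt: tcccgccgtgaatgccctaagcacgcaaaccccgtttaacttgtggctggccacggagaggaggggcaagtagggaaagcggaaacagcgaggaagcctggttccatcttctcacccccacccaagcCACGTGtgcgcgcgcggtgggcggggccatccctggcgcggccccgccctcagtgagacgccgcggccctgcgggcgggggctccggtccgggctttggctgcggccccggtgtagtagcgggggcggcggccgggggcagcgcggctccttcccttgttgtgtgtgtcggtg

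The plates themselves differed in 2 of the 6 genes. Mycn lay at 57.3, 44.5, 66.0 and 55.1 CPM on the LCE plates (replicates 5 to 8), against 20.9, 17.99, 16.0 and 19.5 CPM on the LC plates (replicates 1 to 4). Mxd4 lay at 90.8, 99.3, 91.3 and 84.8 CPM on the LCE plates, against 63.0, 68.6, 51.3 and 50.5 CPM on the LC plates. For both genes, every LCE plate was above every LC plate. The share of all genes that separate the sets in this way was not computed, so this count is not read as particular to the 2 genes. Depth and spike-in RNA (0% of counts on LCE plates, 3.27% to 4.36% on LC plates) differ between the same 2 sets, so their part in these levels cannot be told apart from a difference between the cells. Myc averaged 194 ± 17.5 CPM on LCE and 179 ± 7.99 CPM on LC plates (SD, n = 4 each), Max 77.1 ± 8.02 and 80.8 ± 9.77 CPM, Mnt 25.0 ± 2.67 and 21.2 ± 2.65 CPM, and Mxi1 27.4 ± 5.22 and 20.3 ± 3.22 CPM, and the 2 sets overlapped for each of these 4 genes. Because the sets differ, the arms below were compared within plates.

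**Figure D1:**
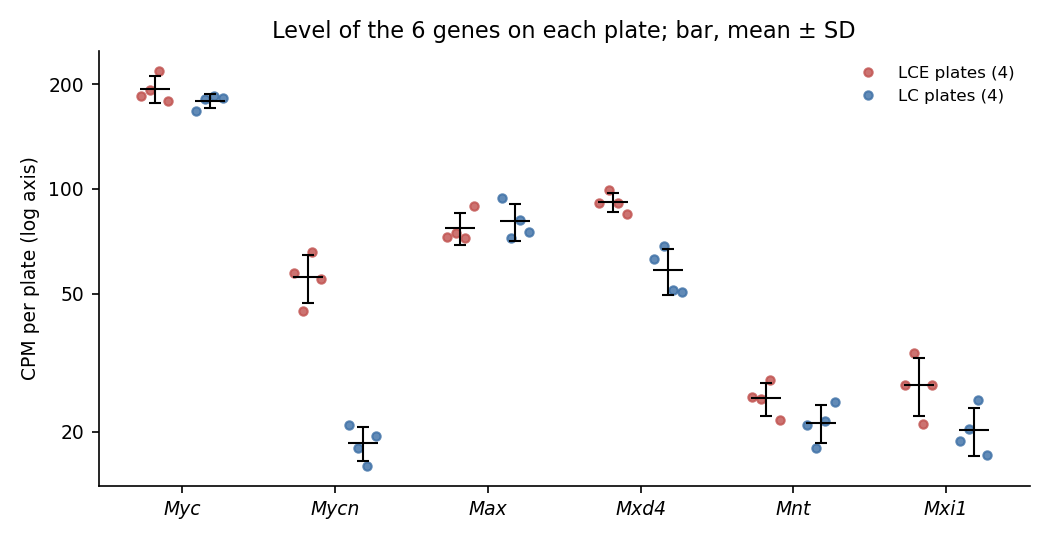
Level of each of the 6 genes on each plate, in CPM on a log axis; points are plates, red for LCE and blue for LC, and bars are the mean ± SD of 4 plates. Mycn and Mxd4 were higher on all 4 LCE plates than on any LC plate; counts of 3′ ends are not scaled for length, so the genes are not to be ranked against each other.

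In single cells the genes were sparsely sampled. Myc was detected in 1868 of the 2712 cells and reached 33 counts in 1 cell. Mycn was detected in 609 cells, 73.6% of them with a single count, Max in 1268, Mxd4 in 1136, Mnt in 464 and Mxi1 in 463. No cell held more than 1.26% of the counts of any of the 6 genes over all plates. Within a single plate the share of 1 cell was larger. It reached 8.08% of the Mnt counts on LC187, 7.61% of the Mxi1 counts on LC188 and 7.41% of the Mycn counts on LC188. The arms compared below are parts of plates, so 1 cell can weigh more in them. Cells of other types held 10.5% of the Myc counts, 7.15% of the Mycn counts and 5.53% to 10.7% of those of the other 4 genes. Thinned to 3000 counts per cell, Mycn was detected in 11.2% of cells and Myc in 38.3%.

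Between large and small cells, Mycn and Mxd4 fell and Myc did not pass the test. Mycn had 52.4, 25.5, 41.0 and 31.6 CPM in the cells of highest forward scatter of the 4 LCE plates, against 63.6, 77.5, 93.4 and 81.0 CPM in the cells of lowest forward scatter of the same plates. The arms did not overlap, and the middle tercile, at 58.7, 46.4, 79.0 and 66.5 CPM, lay between them on every plate. The log2 difference was -0.97 ± 0.17 (SE, high minus low; adjusted p = 3.17e-06, edgeR's quasi-likelihood test with the plate as a block and Benjamini-Hochberg adjustment over all genes tested, as for every adjusted p below unless another is named), about 0.509-fold. This SE and p come from a statistic that shares dispersion across genes, so they do not give the spread over the 4 plates alone. The smallest step was on plate LCE409, at -0.28 on the log2 scale with 1 CPM added, and the other 3 plates lay between -1.56 and -1.17. Large cells had medians of 7874 to 10233 counts per cell and small cells 4613 to 6058. Mycn had 155 counts in 452 large and 183 counts in 449 small cells, so large cells held more counts in all but not more of Mycn. Thinned to 3000 counts per cell, the log2 difference was -0.62 (adjusted p = 0.0498), and DESeq2 gave -1.02 (adjusted p = 0.0101). The thinned Mycn detection rate was 13.6% ± 7.15 in large and 19.4% ± 3.22 in small cells (SD, n = 4). It was lower in large cells on 3 plates, but on plate LCE409 it was higher in large cells, at 23.2% against 16.0%.

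Mxd4, which encodes a MAX partner that represses E-box genes, had 79.9, 66.2, 71.3 and 55.5 CPM in large cells, against 95.4, 122, 95.3 and 90.2 CPM in small cells, and the arms did not overlap. Its middle tercile was the highest of the 3 on every plate, at 102 to 131 CPM, so its level did not fall steadily with size. The log2 difference between the outer terciles was -0.49 ± 0.14 (adjusted p = 0.00643). Without plate LCE407 (replicate 6) it was -0.37 with an adjusted p of 0.137, and DESeq2 gave an adjusted p of 0.225.

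Myc had 210, 194, 216 and 167 CPM in large cells, against 158, 148, 227 and 168 CPM in small cells. It was higher in large cells on 2 of 4 plates and near equal on the others, with a log2 difference of 0.24 ± 0.10 after TMM scaling (adjusted p = 0.0710). It passed with no filter on low counts (adjusted p = 0.0361) and with cells split at the median (adjusted p = 0.0234). Max, the shared partner, differed by -0.03 ± 0.15, Mnt by 0.20 ± 0.26 and Mxi1 by 0.29 ± 0.25, and none of the 3 passed the test. In this comparison 2 of the 6 genes were called, beside 18.6% of the 9010 genes tested.

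Other genes moved with size in the same cells. All 16 S phase genes and all 16 genes of the G2 and M phases rose in large cells, with medians of 1.05 and 1.496 on the log2 scale, and 6 of the 8 stem cell markers tested fell, with a median of -0.63; the median of all genes tested was -0.01. The summed level of the S phase genes was 2202 to 2366 CPM in large cells and 1115 to 1449 CPM in small cells, and that of the 12 stem cell genes was 558 to 661 CPM in large cells and 865 to 1020 CPM in small cells. Of the lymphoid priming genes 5 of 11 tested fell, at 1310 to 1784 CPM in large and 1724 to 2163 CPM in small cells. Markers of B lineage cells also differed, at 125 to 344 CPM in large and 255 to 376 CPM in small cells, with 5 of 8 lower. These counts are calls of edgeR, which called 18.6% of all genes tested. DESeq2 called 7.46% of its genes, among them 14 S phase genes and 13 genes of the G2 and M phases, all higher. It called only 1 stem cell marker, 1 lymphoid priming gene and 0 B lineage markers lower. Without the cells of other types, the log2 difference of Mycn was -0.90 and that of Mxd4 -0.57, and both were called. The part of cell cycle phase and of stem cell and lymphoid-primed content in these 2 differences was not tested.

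Forward scatter was also fitted together with each other marker, on cells split at both plate medians. Mycn fell by 0.75 to 0.78 on the log2 scale with forward scatter in the 4 such fits and Mxd4 by 0.38 to 0.45, each with an adjusted p of at most 0.0110. Myc rose with forward scatter by 0.21 with CD135, 0.22 with Dach1-GFP and 0.24 with CD150 in the model (adjusted p = 0.0498, 0.0415 and 0.0182). With Sca1 in the model it differed by 0.20 and did not pass (adjusted p = 0.0691). With forward scatter held in the model, none of the 6 genes was called by Sca1, CD135, Dach1-GFP or CD150, where 2.2%, 3.54%, 4.21% and 1.42% of all tested genes were called. At an unadjusted p under 0.05, 1 of the 6 genes passed by Sca1, 2 by CD150 and 0 by CD135 and by Dach1-GFP. These fits used the 4 LCE plates alone, with several sums per plate. Their p-values thus also rest on the spread between sums of the same plate, which are not separate replicates.

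**Figure D2:**
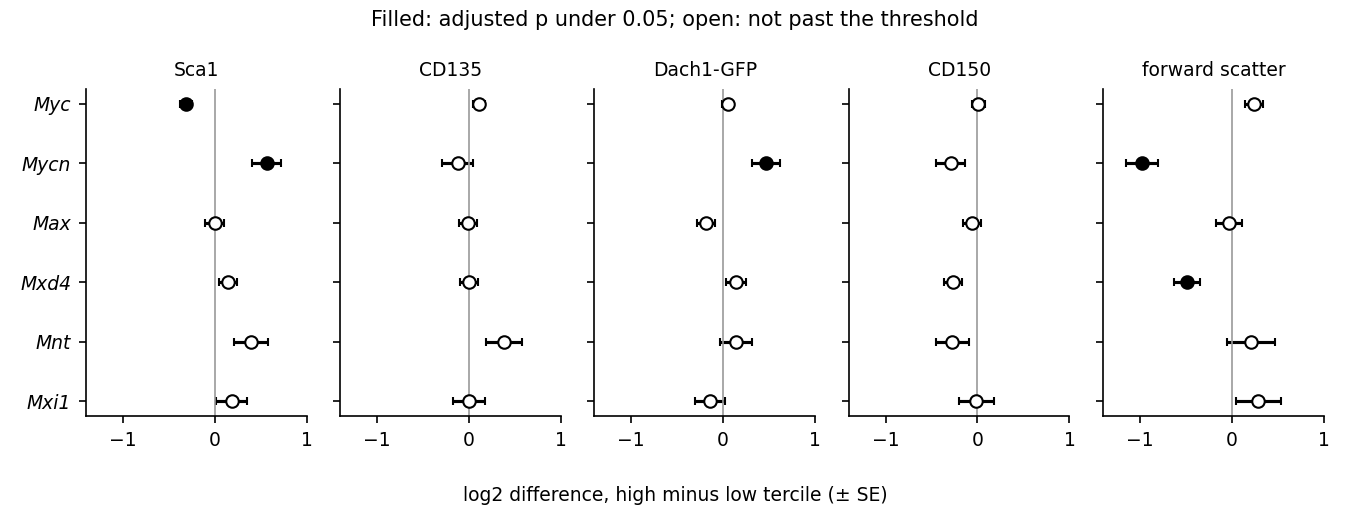
Log2 difference between the high and the low tercile (± SE) for the 6 genes, in 1 panel per marker; filled points passed an adjusted p of 0.05 and open points did not. Of 30 values 5 passed: Mycn and Myc by Sca1, Mycn by Dach1-GFP, and Mycn and Mxd4 by forward scatter.

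By Sca1, Myc fell and Mycn rose in the high arm. Myc was lower in the Sca1-high cells of all 8 plates, at 148, 172 and 195 CPM (lowest, median and highest plate) in Sca1-high cells, against 184, 209 and 228 CPM in Sca1-low cells. On the LC plates the arms did not overlap, and on plate LCE410 they were near equal. The log2 difference was -0.31 ± 0.06 (adjusted p = 0.000364). It was called without each plate in turn. On the LCE plates alone it was -0.20 ± 0.10 (adjusted p = 0.311), and on the LC plates alone -0.39 ± 0.08 (adjusted p = 0.00185).

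Mycn on the LCE plates had 55.5, 41.4, 74.6 and 51.7 CPM in Sca1-high cells, against 55.1, 49.7, 51.6 and 51.7 CPM in Sca1-low cells, and the arms overlapped. On the LC plates it had 37.8, 26.6, 25.0 and 26.2 CPM in Sca1-high cells, against 13.2, 11.7, 9.52 and 16.5 CPM in Sca1-low cells, and the arms did not overlap. Over all plates the log2 difference was 0.57 ± 0.16 (adjusted p = 0.0110). Within the sets it was 0.08 ± 0.17 on LCE plates (adjusted p = 0.897) and 1.18 ± 0.25 on LC plates (adjusted p = 0.00209). The test of the difference between the sets gave -1.10 ± 0.29 (LCE minus LC; unadjusted p = 0.000400, adjusted p = 0.126), so it did not pass the correction over all genes. Without plate LC187 (replicate 1) the adjusted p was 0.0827, and DESeq2 gave 0.128.

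Mnt, a MAX partner present in most cell types, did not pass the test. On the LCE plates it had 18.1, 24.8, 29.8 and 12.5 CPM in Sca1-high cells, against 24.1, 23.6, 18.9 and 20.2 CPM in Sca1-low cells, and the arms overlapped. On the LC plates it had 22.96, 25.1, 33.1 and 32.3 CPM in Sca1-high cells, against 19.8, 11.7, 17.8 and 21.8 CPM in Sca1-low cells, with no overlap. The log2 difference over all plates was 0.40 ± 0.18 (adjusted p = 0.151), that on the LC plates alone 0.68 ± 0.23 (adjusted p = 0.0723). Mxd4 was higher in Sca1-high cells on all 8 plates by small steps, 0.14 ± 0.10 (adjusted p = 0.378), and Max (0.00 ± 0.10) and Mxi1 (0.19 ± 0.17) did not pass. Over all plates 2 of 6 genes were called by Sca1, beside 11.9% of the 10157 genes tested.

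Sca1-high cells were shallower, with medians of 5027 to 6789 counts per cell on LCE and 10521 to 11846 on LC plates, against 6342 to 8120 and 13535 to 15168 in Sca1-low cells. After each cell was thinned to 3000 counts, the log2 difference of Mycn was 0.14 (adjusted p = 0.815) and that of Myc -0.25 (adjusted p = 0.160). The thinned Mycn detection rate was 8.11% ± 3.75 in Sca1-high and 5.32% ± 1.26 in Sca1-low cells of the LC plates, and lower in Sca1-high cells on plate LC188. On the LCE plates it was 15.4% ± 6.13 in Sca1-high and 15.7% ± 4.27 in Sca1-low cells (SD, n = 4 each). Stem cell markers rose by Sca1 (7 of 8 tested, median 0.80), with a summed level of 678 to 1060 CPM in Sca1-high and 343 to 789 CPM in Sca1-low cells. Lymphoid priming genes rose too (6 of 9 tested), at 1216 to 2436 CPM in Sca1-high and 841 to 1720 CPM in Sca1-low cells, and all 5 B lineage markers tested fell, at 28.2 to 161 CPM in Sca1-high and 28.1 to 570 CPM in Sca1-low cells. Without the cells of other types, Mycn differed by 0.50 and Myc by -0.32, both called. Of the S phase genes 4 of 16 fell and 0 rose by Sca1, and of the G2 and M phase genes 4 of 16 fell and 0 rose. Their median log2 differences were -0.12 and -0.26, and 11.9% of all genes were called. The part of depth, of cell cycle phase and of stem cell and lymphoid-primed content in the Mycn and Myc differences was not tested.

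**Figure D3:**
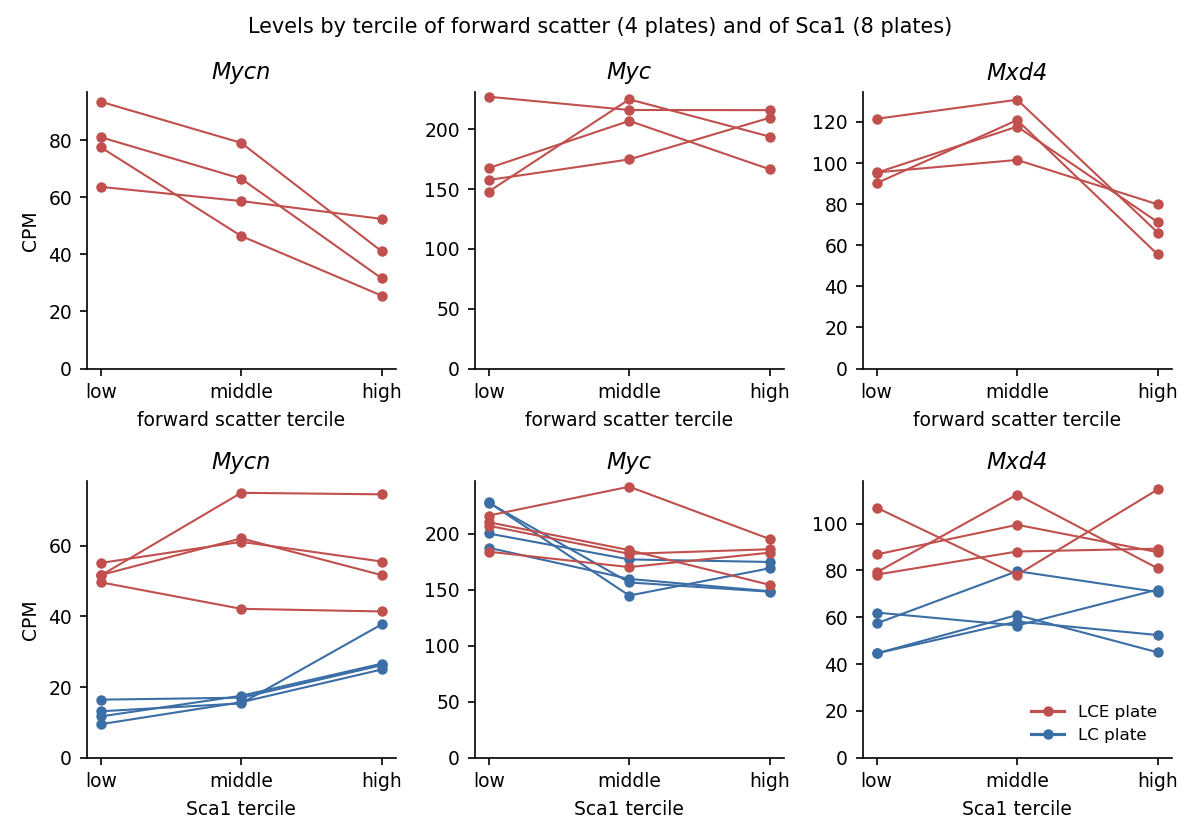
Levels of Mycn, Myc and Mxd4 in CPM by tercile of forward scatter (top, 4 LCE plates) and of Sca1 (bottom, 8 plates); each line is 1 plate, red for LCE and blue for LC. Mycn fell with forward scatter on all 4 plates, Mxd4 was highest in the middle tercile, and the Mycn lines of the LC plates rise at the high Sca1 end while those of the LCE plates do not share a direction.

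By Dach1-GFP, Mycn rose in GFP-high cells. On the LCE plates it had 59.8, 58.6, 75.9 and 72.7 CPM in GFP-high cells, against 63.4, 41.6, 58.9 and 50.3 CPM in GFP-low cells. On the LC plates it had 20.3, 20.2, 20.5 and 19.8 CPM in GFP-high cells, against 20.6, 10.8, 10.1 and 8.13 CPM in GFP-low cells. It was higher on 6 of 8 plates and slightly lower on LC187 and LCE409. The log2 difference was 0.46 ± 0.15 (adjusted p = 0.0439), 0.29 ± 0.16 on the LCE plates alone (adjusted p = 0.424) and 0.72 ± 0.27 on the LC plates alone (adjusted p = 0.167), so neither set passed by itself, and the LCE minus LC difference of -0.41 ± 0.30 did not pass (adjusted p = 0.804). This call was close to the threshold: it was lost without any 1 of replicates 2, 3, 4, 6, 7 and 8 (adjusted p from 0.0702 to 0.138), with DESeq2 (0.268) and without the cells of other types (0.103), and was kept after thinning to 3000 counts (0.72, adjusted p = 0.0184).

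The other 5 genes did not pass by Dach1-GFP. Mxd4 differed by -0.18 ± 0.14 on the LCE plates (adjusted p = 0.614) and was higher in GFP-high cells on all 4 LC plates (0.40 ± 0.14, adjusted p = 0.1252), and the test of the difference between sets gave -0.57 ± 0.20 (unadjusted p = 0.00635, adjusted p = 0.448). Max differed by -0.19 ± 0.09, Myc by 0.05 ± 0.06, Mnt by 0.14 ± 0.17 and Mxi1 by -0.15 ± 0.16. Of the 6 genes 1 was called, beside 7.77% of the 10314 genes tested. All 9 stem cell markers tested rose and all 9 lymphoid priming genes tested fell in GFP-high cells, with summed levels of 591 to 1071 CPM and 581 to 1049 CPM in GFP-high cells, against 294 to 595 CPM and 1588 to 3021 CPM in GFP-low cells, and all 7 B lineage markers tested fell. The part of this shift of composition in the Mycn difference was not tested.

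By CD135 and by CD150 none of the 6 genes passed edgeR's test, beside 11.1% of 10377 and 2.11% of 10398 genes tested, and DESeq2 called none either. At an unadjusted p under 0.05, 0 of the 6 passed by CD135 and 1 by CD150. That gene was Mxd4, which was lower in the CD150-high cells of all 8 plates, at 45.2, 71.7 and 86.6 CPM (lowest, median and highest plate) in CD150-high cells, against 47.8, 87.0 and 113 CPM in CD150-low cells. Its log2 difference was -0.26 ± 0.10 (adjusted p = 0.212), and on the LCE plates alone, where the arms did not overlap, -0.37 ± 0.14 (adjusted p = 0.0947). Of CD150-high cells 91 of 456 on LC and 65 of 452 on LCE plates were of other types. Of CD150-low cells 25 of 452 and 19 of 449 were. On LCE plates CD150-high cells had medians of 6486.5 to 8178 counts, CD150-low cells 4882 to 6349. CD150 and forward scatter had a mean rank correlation of 0.25 there. The part of depth, size and composition in the Mxd4 difference was not tested. Mycn by CD150 was -0.29 ± 0.16, lower on 7 of 8 plates (adjusted p = 0.494). Mnt by CD135 was 0.38 ± 0.20, higher on 7 of 8 plates (adjusted p = 0.247), and reached an adjusted p of 0.0481 without plate LCE407 (replicate 6).

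The 4 surface and reporter intensities are related over cells: CD135 and Dach1-GFP had a mean rank correlation within plates of -0.56 on LCE and -0.45 on LC plates, and Sca1 and CD135 of 0.23 and 0.36 (a description, n = 4 plates each). In a fit of all 4 together, on cells split at each median, Myc, Max and Mxd4 had enough counts to be tested. Each plate gave several sums to this fit, so its p-values also rest on the spread between sums of the same plate. Myc fell with Sca1 by 0.26 (adjusted p = 0.00119), and rose with CD135 by 0.18 ± 0.06 (adjusted p = 0.0289) and with Dach1-GFP by 0.17 ± 0.06 (adjusted p = 0.0433). It was -0.09 ± 0.06 by CD150. Max and Mxd4 were not called by any of the 4, the nearest being Mxd4 by Dach1-GFP at 0.25 ± 0.10 (adjusted p = 0.0703). This fit called 11.4% of its 2431 genes by Sca1, 18.6% by CD135, 14.4% by Dach1-GFP and 3.21% by CD150. When no filter on low counts was used, a setting chosen after seeing the data, Myc by Sca1 was the single call among the 6 genes (-0.29, adjusted p = 0.00448), and Mycn was 0.39 ± 0.16 by Sca1 and 0.35 ± 0.17 by Dach1-GFP (adjusted p = 0.270 and 0.382).

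The difference between the plate sets in their response to a marker (LCE minus LC, edgeR) was called for 0 of 6 genes by each of Sca1, CD135, Dach1-GFP and CD150, beside 0.118%, 0.655%, 0.126% and 0.635% of all genes. At an unadjusted p under 0.05, 2 of the 6 passed by Sca1 (Mycn and Mnt), 1 by Dach1-GFP (Mxd4) and 0 by CD135 and by CD150. These 3 were named after their values were seen.

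The direction of Mycn relative to Myc was tested on their ratio within plates. By Sca1, the log2 ratio of Mycn to Myc (1 CPM added to each) was -2.07 in Sca1-high and -2.96 in Sca1-low cells, a mean difference of 0.89 ± 0.75 (SD over 8 plates), positive on 7 of 8 plates (exact two-sided sign-flip permutation p = 0.0234, adjusted over 5 markers 0.0781). The LCE plates gave -0.10 to 0.67 and the LC plates 1.07 to 1.78, so the sets did not overlap. By Dach1-GFP the difference was 0.47 ± 0.47, positive on 7 of 8 plates (exact permutation p = 0.0312, adjusted 0.0781). By CD150 it was -0.31 ± 0.60 (exact permutation p = 0.188, adjusted 0.234) and by CD135 -0.29 ± 0.84 (exact permutation p = 0.305, adjusted 0.305). By forward scatter it was -1.26 ± 0.53 over 4 plates, negative on all 4. The exact permutation test over 4 plates cannot reach 0.05, and this result has the smallest p it allows (adjusted 0.208). The ratio passed the corrected threshold by none of the 5 markers.

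**Figure D4:**
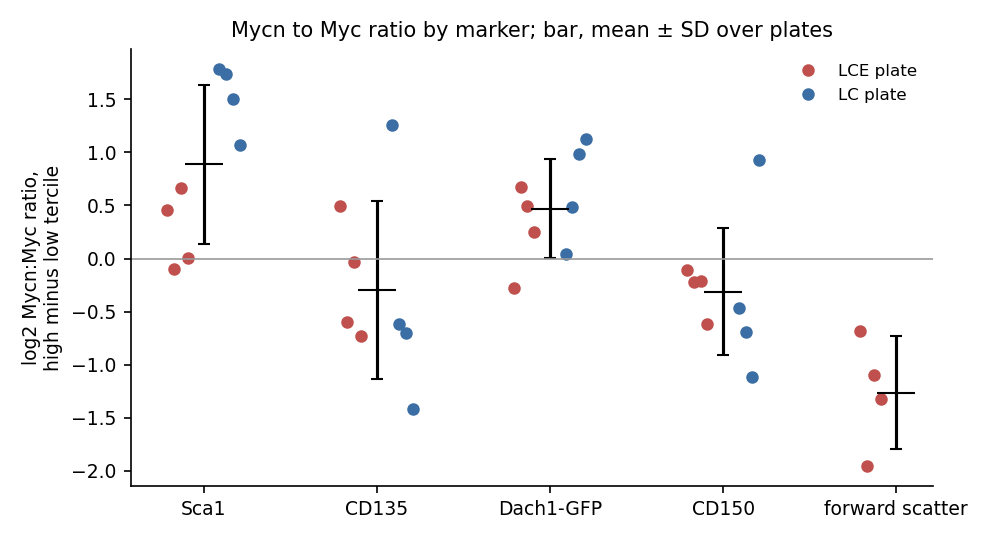
Difference in the log2 ratio of Mycn to Myc between the high and the low tercile of each marker; each point is 1 plate, red for LCE and blue for LC, and bars are the mean ± SD over plates. By forward scatter all 4 plates lie below 0, and by Sca1 the 4 LC plates lie above the 4 LCE plates.

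With all counts of a cell, Myc and Mycn were found in the same wells as often as the product of their shares gives. In cells thinned to equal depth the result differed between the thinnings tried. Before thinning, 413 of 2712 wells held both genes, where the product of the shares within plates gives 413.0, 196 held Mycn alone, 1455 Myc alone and 648 neither. Myc was detected in 67.8% of wells with Mycn and in 69.2% of wells without it. Cells with more counts detect more genes, so the test used cells thinned to 3000 counts. Of those 2672 wells, 127 held both genes against 119.2 by the product of the shares, and the log2 odds ratio per plate averaged 0.24 ± 0.60 (SD, n = 8), above 0 on 6 of 8 plates (exact sign-flip permutation p = 0.297).

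The result differed between the thinnings. Each depth was drawn at random a single time, so an effect of depth cannot be told apart from that of the draw. At 2000 counts the mean was 0.39, with an exact permutation p of 0.00781, the smallest that 8 plates allow, and at 5000 counts it was 0.36 (exact permutation p = 0.0312), whereas all counts gave 0.02 ± 0.38 (exact permutation p = 0.914). The LCE plates averaged -0.03 and the LC plates 0.51. Without plate LCE407 (replicate 6) it was 0.39 (exact permutation p = 0.0625), and without plate LC189 (replicate 3) 0.11. Among LCE cells split by forward scatter, the mean log2 odds ratio was 0.04 ± 0.68 in large and 0.02 ± 0.89 in small cells (SD, n = 4), given without a test.

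A difference in the level of Myc between wells with and without Mycn was not detectable at this depth. In thinned cells Myc averaged 200 ± 73.7 CPM in wells with a Mycn count and 177 ± 16.1 CPM in wells without one (SD, n = 8), a mean log2 difference of 0.10 ± 0.60, positive on 4 of 8 plates (exact permutation p = 0.664). Without plate LC189 (replicate 3) it was -0.04. With all counts it was -0.04 ± 0.28 (exact permutation p = 0.719), from 183 ± 31.5 CPM in wells with Mycn and 186.6 ± 16.8 CPM in wells without. Wells with Mycn numbered 14 to 67 per plate after thinning.

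**Figure D5:**
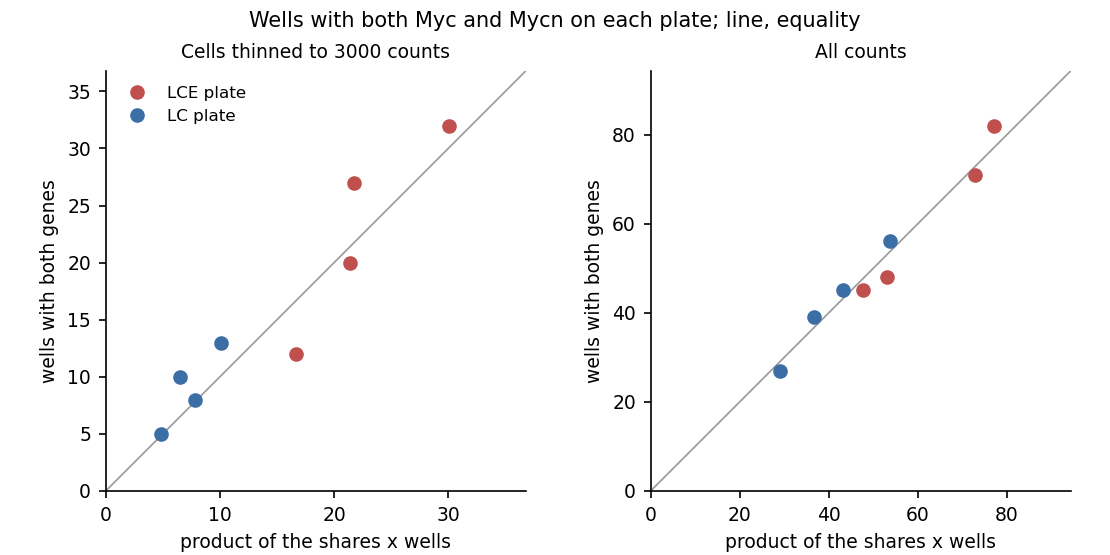
Wells with counts of both Myc and Mycn on each plate (vertical axis) against the number given by the product of the 2 detection shares (horizontal axis), for cells thinned to 3000 counts (left) and with all counts (right); red points are LCE and blue points LC plates, and the line marks equality. With all counts the points lie near the line. After thinning they lie on both sides of it, with 10 wells against 6.5 on plate LC189 and 12 against 16.6 on plate LCE407.

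The other 14 pairs of the 6 genes are given as a description, with no test. In thinned cells their mean log2 odds ratios ran from -0.29 ± 0.43 for Myc with Mxd4 to 0.62 ± 1.22 for Mycn with Mnt (SD, n = 8). Mycn with Mxi1 was above 0 on 7 plates (0.38 ± 0.63), and no pair was on the same side on all 8. With all counts, Myc and Mnt were above 0 on all 8 plates (0.68 ± 0.40), but the thinned value of that pair was -0.09 ± 0.45. Over the wells of all plates pooled, those with Mnt had a median of 10198 counts and those without it 8512. These medians mix the deeper LC plates with the LCE plates, whereas the odds ratios were taken within plates. The part of depth in this pair was not tested.

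Genes with the most similar pattern were sought over 64 sums, 8 bins per plate from median splits of CD135, Dach1-GFP and CD150, among 7151 genes, after centring within plates. The sums held 11 to 91 cells and share cells, libraries and depth, so the correlations are a description across these sums. Mycn was closest to Retreg1, Zbtb20, Serpina3g, Gcnt2 and Ctla2a (Pearson r from 0.63 to 0.65). Myc was closest to Sympk, Gm37760, Lzts2, AW112010 and Aff3 (0.56 to 0.61), and Mxd4 to Meis1, Crlf3, Cyfip2, Tes and Rnf130 (0.50 to 0.54). Max was closest to Gm7424, Odf2l, Thoc3, Malt1 and Nelfa (0.61 to 0.64), Mnt to Scoc, Mvb12b, Gm12058 and Nup133 (0.63 to 0.67) and Mxi1 to Slc14a1, Frmd4a, Clpp, Tmbim4 and Asf1a (0.47 to 0.52). Between members the correlations ran from -0.10 for Myc and Max to 0.40 for Myc and Mnt, with 0.27 for Myc and Mycn. The closest genes were picked as the highest among 7151, which by itself favours high values. The correlations of fixed pairs of members are therefore not to be set against theirs.

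Known targets of MYC were followed as a list of 31 genes for ribosome production, nucleotide and polyamine synthesis and growth, all tested in each comparison. By forward scatter 17 rose and 0 fell in large cells, beside 18.6% of all genes called in either direction (0 lower also at an unadjusted p under 0.05 and by DESeq2, which called 6 higher), with a median log2 difference of 0.40 beside -0.01 for all genes. Cad, which starts pyrimidine synthesis, had 56.5 ± 4.73 CPM in large and 34.9 ± 12.5 CPM in small cells (SD, n = 4; log2 difference 0.79 ± 0.19, adjusted p = 0.000947). Pa2g4, a growth-regulated ribosome-associated protein, had 192 ± 18.4 CPM in large and 117 ± 16.4 CPM in small cells (0.78 ± 0.11, adjusted p = 2.34e-09), and Ranbp1, a cofactor of nuclear transport, 244 ± 14.7 CPM and 171 ± 14.7 CPM (0.59 ± 0.09, adjusted p = 1.91e-07).

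By Sca1, 17 of the 31 targets fell and 0 rose in Sca1-high cells, beside 11.9% of all genes called (0 higher also at an unadjusted p under 0.05 and by DESeq2, which called 9 lower), with a median of -0.24 beside 0.01 for all genes. Tfrc, the transferrin receptor, had 26.4 ± 9.06 CPM in Sca1-high and 49.3 ± 28.6 CPM in Sca1-low cells (SD, n = 8; -0.91 ± 0.14, adjusted p = 4.24e-06). Shmt2, a mitochondrial enzyme of serine metabolism, and Rrs1, a ribosome assembly factor, fell by 0.40 each (adjusted p = 0.000622 and 0.0473). By CD135, 9 targets fell and 1 rose in CD135-high cells, beside 11.1% of all genes called, and DESeq2 called 3 lower and 1 higher. Those that fell were led by Srm, the spermidine synthase (-0.38 ± 0.08, adjusted p = 0.000332), Hspd1 and Nolc1, and the riser was Ccnd2, cyclin D2 (0.21 ± 0.05, adjusted p = 0.000926). By Dach1-GFP 3 of 31 fell and 0 rose, a share near the 7.77% of all genes called by this marker (1 higher at an unadjusted p under 0.05, 0 by DESeq2, which called 1 lower). The 3 were Tfrc (-0.75 ± 0.14, adjusted p = 5.26e-05), Ccnd2 (-0.18 ± 0.05) and Hspe1 (-0.17 ± 0.05). By CD150 none was called, beside 2.11% of all genes (6 higher and 0 lower at an unadjusted p under 0.05, 0 by DESeq2), although 13 of 16 genes of the G2 and M phases rose.

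Of the list of cofactor and turnover genes, 3 of 16 tested were called by forward scatter, a share near the 18.6% of all genes tested. By the other markers, with the share of all genes in parentheses, the counts were by Sca1 1 of 16 (11.9%), by CD135 1 of 17 (11.1%), by Dach1-GFP 0 of 16 (7.77%) and by CD150 1 of 17 (2.11%). Within this list Pim1, a kinase known to phosphorylate MYC, was called by 4 of the 5 markers in edgeR. It rose by 0.28 ± 0.05 by Sca1 (adjusted p = 5.17e-06), with 444 ± 62.0 CPM in Sca1-high and 369 ± 54.8 CPM in Sca1-low cells (SD, n = 8), and by 0.26 ± 0.06 by CD135 (adjusted p = 0.00130). It fell by 0.24 by CD150 (adjusted p = 0.0117) and by 0.55 by forward scatter (adjusted p = 1.18e-11), with 346 ± 58.7 CPM in large and 532 ± 105 CPM in small cells (SD, n = 4). Skp2, an F-box protein that acts on MYC, rose by 1.36 ± 0.28 with forward scatter (adjusted p = 9.11e-05), and Ruvbl2, an ATPase of chromatin complexes, by 0.44 ± 0.16 (adjusted p = 0.0368). The count of 0 by Dach1-GFP was also 0 at an unadjusted p under 0.05 and by DESeq2. By forward scatter DESeq2 called 0 genes of this list higher and 1 lower, so it called neither Skp2 nor Ruvbl2. By CD150 it called 0, so the Pim1 call there was edgeR's alone. By Sca1 and by CD135 it called 1 higher each.

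Of 7 further members of the network, 4 or 5 could be tested in each comparison, and 2 were called, both by forward scatter, where 5 were tested and 18.6% of all genes were called. Mxd3, an MXD family member linked to S phase, rose in large cells, at 15.9 ± 2.46 CPM against 2.10 ± 2.65 CPM in small cells (SD, n = 4; adjusted p = 1.23e-05). Mlxip, a partner of MLX in nutrient sensing, fell by 0.81, at 17.5 ± 6.30 CPM in large and 32.7 ± 9.33 CPM in small cells (adjusted p = 0.0151). DESeq2 called neither. By the other 4 markers edgeR and DESeq2 called none, and 2 passed an unadjusted p under 0.05 in edgeR, both higher by Sca1. The 5 comparisons reuse the same cells, so their calls are not independent of each other.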

How the data were processed

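The authors deposited whole-number counts per gene and well for 8 CEL-seq2 plates. Per the labels, reads carried a 6-base molecular tag on the LCE plates. No label or header says whether the deposited counts are reads or molecules, which aligner was run or whether strand was used. Build GRCh38 stands in the submitters' processing notes, although the gene identifiers are those of mouse. Fluorescence intensity and forward scatter, linear values of the sorter per the file headers, were deposited for each well.

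Of 2987 wells with a sort record, 2712 were kept: at least 1000 counts and 500 genes, at most 20% mitochondrial counts. Doublets were not called, since each well received a single sorted cell. Cells were ranked within plates; counts were summed per plate and tercile and tested with edgeR 4.0.16 in R 4.3.3 (quasi-likelihood, TMM, filterByExpr, plate as a block), with Benjamini-Hochberg adjustment over all genes tested at a threshold of 0.05. Differences are high minus low. After an edgeR log2 difference ± is the SE, computed from that difference and its quasi-likelihood F statistic. That statistic shares dispersion across genes, so this SE is not the spread over plates. After CPM ± is the SD over plates. The tercile arms of a plate come from 1 library, which is where the pairing comes from; within plate sets the deviations of the arms of a plate correlated at 0.188 to 0.549. Ratios and wells were tested over plates by exact two-sided sign-flip permutation, with 1 CPM added in ratios and 0.5 added to each cell of an odds ratio. Counting error sets the precision of single cells, and molecules cannot be told from PCR copies if the counts are reads.

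Alternatives were DESeq2 1.42.0, RLE size factors, no filter, no block, median splits, thinning, each plate set alone, no cells of other types and each plate left out. On data simulated for the Sca1 comparison, the test recovered 98.9% of genes changed by 1 and 55.1% of genes changed by 0.5 on the log2 scale, with 9 false calls among 10165 genes. For forward scatter it recovered 81.5% and 30.4%, with 2 false calls among 8977. All genes were simulated at a common dispersion (0.00658 and 0.00127), with changes equal on every plate. The rates therefore need not hold for the 6 genes, or where the effect differs between plates. The 6 genes are given in every comparison; from each MYC list, up to 3 called genes in each direction with the largest log2 difference are named. For likeness, genes with a mean of at least 20 CPM were compared and the 5 closest to each member are named, except 1 gene that is not reported here. Symbols came from the reference annotation, which matched 27249 of 27318 identifiers. The members and lists were chosen with earlier results of these data known. Wells of a plate that the sample labels do not list were not used here.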

Additional observations from a re-analysis of the deposited data

Results flagged for a closer look

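Of 43 groups of plate values examined for a plate far from the others, 1 stood out, and chance alone flags about 1 in 20 such groups. The log2 difference of Mycn by CD150 was 0.92 on plate LC190 (replicate 4), where the median of the other 7 plates was -0.61. On that plate Mycn had 27.6 CPM in CD150-high cells, against 14.2 CPM in CD150-low cells, from 44 and 24 counts.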

How the results depend on the processing

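Over 463 alternatives of the 30 results for the 6 genes, 435 kept their side of the threshold, 25 lost a call and 3 gained one. Signs changed 51 times, in 14 results, all without a call on either side; the 5 called results kept their sign in each. Besides those given above, calls were lost without the replicate block for Myc and Mycn by Sca1 (adjusted p = 0.297 and 0.798), Mycn by Dach1-GFP (0.9997) and Mxd4 by forward scatter (0.0648), with thinning for Mxd4 by forward scatter (0.0836), and with no filter (0.0619) or median splits (0.150) for Mycn by Dach1-GFP. The tercile arms share a plate, and without the replicate block genes called numbered 18 by Sca1, 169 by CD135, 198 by Dach1-GFP, 7 by CD150 and 639 by forward scatter, against 1213, 1147, 801, 219 and 1675 with it. DESeq2 called 460, 612, 472, 77 and 466, and thinned cells gave 225, 193, 271, 64 and 668, in the same order of markers. The LCE plates alone gave 284 by Sca1, 343 by CD135, 490 by Dach1-GFP and 464 by CD150, and the LC plates alone 804 by Sca1, 450 by Dach1-GFP and 77 by CD150. With no filter, the joint fit called 751 genes by CD135 and 785 by Dach1-GFP, against 451 and 349 with it. The cause of these shifts was not tested. Leaving out 1 plate at a time gave 906 to 1270 genes by Sca1, 844 to 1238 by CD135, 627 to 803 by Dach1-GFP, 150 to 270 by CD150 and 1088 to 1419 by forward scatter, the lowest of these without plate LCE407 (replicate 6). It moved the log2 odds ratio of wells with both genes between 0.11 and 0.39, and the log2 difference of Myc with Mycn between -0.041 (without replicate 3) and 0.22. The odds ratio was 0.39 after thinning to 2000 counts, 0.36 after thinning to 5000 and -0.029 on the LCE plates alone; the Myc difference was -0.040 without thinning and -0.092 on the LCE plates alone. The Mycn to Myc ratio stayed on the same side for each marker when 1 plate was left out, between 0.76 and 1.03 by Sca1, -0.52 and -0.13 by CD135, 0.38 and 0.58 by Dach1-GFP, -0.49 and -0.20 by CD150, and -1.46 and -1.03 by forward scatter. Forward scatter was tested on the LCE plates alone. Depth limits Mycn, Mnt and Mxi1, detected in 22.5%, 17.1% and 17.1% of cells, the most.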
